A study of Mus musculus with 24 samples.

Results

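The short H2A and H2B spermatid variants are histones that mouse germ cells make around and after meiosis. They are described here through 7 genes, H2al2a, H2al1m, H2al1n, H2al1e, H2al3, H2ap and H2bl1, which were named one by one and are read by 8 of the 45281 probes of an Illumina bead array, with 2 probes for H2al1e and 1 for each other gene. All 7 genes were detected on each of the 12 arrays used below and passed the detection filter, out of 10076 named genes that did. The genes were chosen by name with results of these arrays known. Which measured values were in view is not stated. The differences between KO and WT round spermatids were taken to be among them and are given as a description, with no p-value for these genes. Whether values of the other comparisons were also in view is not known, which limits their p-values for these genes.

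Gene expression was measured in germ cells of adult male mice of a B6/129sv background, in 4 groups of 6 arrays: Nutm1 KO round spermatids, WT round spermatids, Nutm1 KO spermatocytes and WT spermatocytes. The product of Nutm1 is a chromatin protein of postmeiotic germ cells that acts with p300, a histone acetyltransferase. The mutant is a KO in the labels and a knock down in the design text of the series, and the altered part of the gene is given in neither. Testis cells were sedimented on a BSA gradient in 3 fractionations per genotype, each pooling 3 KO or 2 WT mice. Spermatocytes are the cells in meiosis, and round spermatids the haploid cells that follow. Replicates 1 to 3 are these fractionations and are called direct arrays, whereas arrays 4 to 6 of a group hold RNA mixed from 2 of them.

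In elongating spermatids most histones are removed and replaced, first by transition proteins and then by protamines, which pack the sperm genome. Short H2A variants lack much of the C-terminal part of a canonical H2A and form nucleosomes that hold DNA loosely. H2A.L.2, the product of H2al2a, is known to be needed in the mouse for transition proteins to enter chromatin, and male mice without it are infertile. The H2A.L.1 proteins come from a set of near-identical X-linked copies, among them H2al1m, H2al1n and H2al1e. H2al3 and H2ap are neighbouring X-linked genes of short H2A-related proteins, and H2bl1 encodes a spermatid H2B variant, whose bovine counterpart was described below the acrosome.

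H2al2a is on chromosome 2, H2bl1 on chromosome 13 and the other 5 genes on the X chromosome. RefSeq promoter windows (GRCm38.p6) were found for all 7 genes, and 4 of them are shown because these genes share an expression pattern while their upstream sequences range from near copies to unrelated. Each line gives the 150 bases before the annotated start, 5′ to 3′ on the gene's strand. In H2al2a capitals mark bases within any stretch of at least 10 bases found in the shown windows of all 3 H2al1 genes. In H2al1m they mark bases within any such stretch found in the window of H2al2a. Overlapping stretches run together, so a run of capitals need not occur whole in the other windows. The longest run in H2al2a joins stretches that lie apart in the H2al1 windows, on either side of aacaccagagttcag. In H2al3 and H2bl1, which share no stretch of at least 10 bases with H2al2a, capitals mark TATAAA or CCAAT.
H2al2a, chr2:17996959-17997108, minus strand: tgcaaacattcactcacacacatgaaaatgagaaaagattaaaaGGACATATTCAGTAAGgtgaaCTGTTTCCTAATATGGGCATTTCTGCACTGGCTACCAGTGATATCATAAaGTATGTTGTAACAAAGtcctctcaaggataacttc
H2al1m, chrX:9283614-9283763, plus strand: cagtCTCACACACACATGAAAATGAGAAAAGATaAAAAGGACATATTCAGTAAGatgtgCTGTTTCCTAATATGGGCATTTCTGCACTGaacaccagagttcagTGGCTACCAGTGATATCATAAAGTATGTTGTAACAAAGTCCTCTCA
H2al3, chrX:9849553-9849702, plus strand: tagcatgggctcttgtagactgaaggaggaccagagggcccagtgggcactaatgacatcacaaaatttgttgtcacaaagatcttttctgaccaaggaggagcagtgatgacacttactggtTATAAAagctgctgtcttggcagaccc
H2bl1, chr13:98984566-98984715, minus strand: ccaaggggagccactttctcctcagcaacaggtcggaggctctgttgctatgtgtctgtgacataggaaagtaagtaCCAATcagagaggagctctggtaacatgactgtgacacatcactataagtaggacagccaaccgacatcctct

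The upstream sequence of autosomal H2al2a is largely that of the X-linked H2al1 genes. Over the 250 bases before the start, the best local alignment of H2al2a with H2al1n covered 227 columns at 82.8% identity, and that with H2al1m covered 249 at 79.5%. Among themselves the 3 H2al1 windows were 93.6% to 97.2% identical, with an unbroken run of 106 bases shared by H2al1n and H2al1e. H2al3 aligned with H2al1n over 135 columns at 69.6% identity, but their longest shared run was 8 bases. The best alignment of H2bl1 with H2al2a had 54.7% identity and a longest run of 6 bases. The palindromic cAMP response element TGACGTCA, searched on both strands of the 300-base windows, was in 0 of the 7 and in 1.79% of all 32851 promoters. The shorter TGACG, which the full element contains, was in 1 of the 7 (H2ap) and in 20.8% of all. TATAAA was in 1 of the 7 (H2al3), against 13.6% of all promoters, and CCAAT in 2 (H2ap and H2bl1), against 37.4%.

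Before the values, some properties of the arrays bear on what follows. The direct arrays had a median raw signal of 136.3 to 171.3 and detected 13849 to 16244 probes, while the mixed arrays had 127.7 to 136.1. Of 84 readings of the 7 genes on mixed arrays, 24 lay between the 2 arrays of the RNAs that were mixed, 41 below both and 19 above both. In KO spermatocytes 19 of 21 such readings lay below both. Across all features 18.6% to 52.3% of readings lay between, depending on the mixture. The fits use the direct arrays because by the labels the others are mixtures of the same RNA. Same-stage groups of KO and WT come from different mice, and nothing in the labels separates genotype from day of preparation. Nutm1 itself read 6.81, 6.75 and 7.03 (log2) in KO round spermatids, against 8.52, 8.40 and 8.18 in WT round spermatids (difference -1.50, SE 0.24, limma adjusted p = 0.00156). Its probe was still detected on all 3 KO round spermatid arrays. In spermatocytes Nutm1 read 5.51, 5.69 and 5.67 in KO and 5.76, 6.17 and 6.89 in WT. That difference did not pass (-0.65, SE 0.24, limma adjusted p = 0.546). Of 10 spermatocyte markers 6 were measured. Of these only Spo11 and Sycp2 were lower in round spermatids than in spermatocytes of both genotypes. Syce2 went the other way, as it was detected on all round spermatid arrays and on no spermatocyte array. It read at least 4.71-fold higher in WT and at least 3.46-fold higher in KO round spermatids. All 9 measured round spermatid markers rose in both genotypes, where 28.4% of features were called higher in WT and 26.4% in KO. Sycp3, Hormad1, Dmc1 and Tex12 were not measured.

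**Figure D1:**
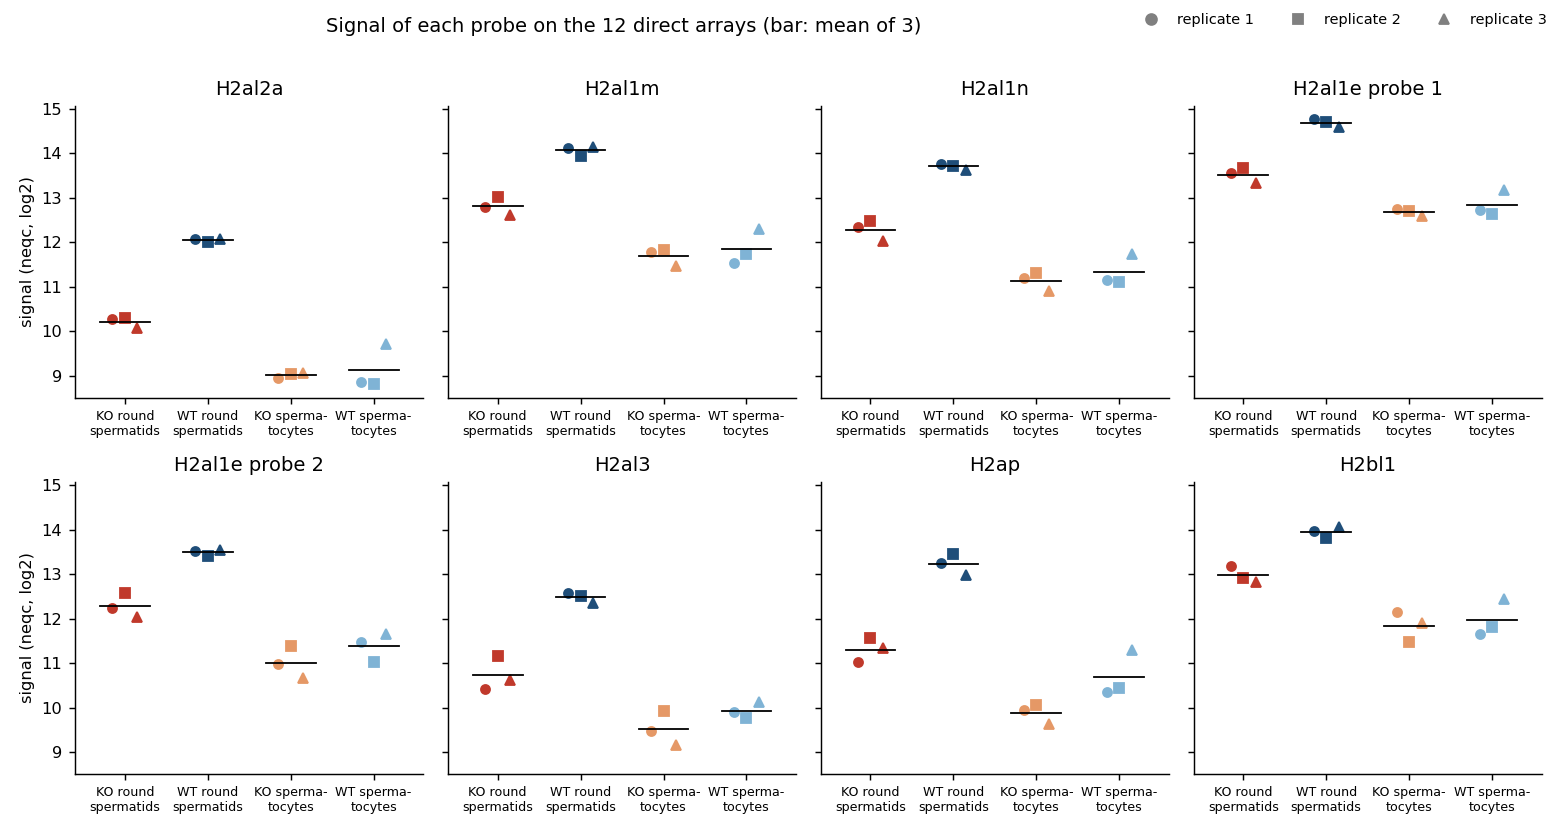
Signal (neqc, log2) of each of the 8 probes on the 12 direct arrays, in KO and WT round spermatids and KO and WT spermatocytes; points are arrays, bars are means of 3. In every panel the 3 KO round spermatid arrays lie below the 3 WT round spermatid arrays and above the 3 KO spermatocyte arrays.

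In round spermatids all 7 variant genes read lower in KO than in WT, by 1.96-fold to 3.80-fold, and for none of them did the arrays of the genotypes overlap. Signals are log2 intensities after background correction and quantile normalization, and differences are KO minus WT on that scale. All 7 passed at an adjusted p under 0.05 in the limma fit, where 7.99% of the 12705 features tested were called lower. Arrays that do not overlap, with KO lower, were seen in 17.3% of features. Their median difference was -1.43, which is -1.54 relative to the median of all features. Nothing is read from these counts, because this comparison was taken as known when the genes were listed. In bulk RNA, fewer cells with a transcript and less of it per cell cannot be told apart.

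H2al2a had a signal of 10.284, 10.299 and 10.080 in KO round spermatids and 12.081, 12.002 and 12.081 in WT round spermatids. The WT arrays had an SD of 0.05, and the highest KO array was far below the lowest WT array. The difference was -1.83 (SE 0.22, 95% interval -2.31 to -1.36), or 3.56-fold. On the linear scale the authors deposited, H2al2a read 1363, 1376 and 1198 in KO and 4447, 4218 and 4447 in WT round spermatids.

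The 3 X-linked H2A.L.1 genes were lower by similar amounts. H2al1m read 12.79, 13.02 and 12.62 in KO and 14.12, 13.94 and 14.15 in WT round spermatids, which gave -1.26 (SE 0.21). H2al1n read 12.35, 12.47 and 12.02 in KO and 13.77, 13.73 and 13.63 in WT, a difference of -1.43 (SE 0.21). H2al1e read 13.56, 13.66 and 13.33 in KO and 14.77, 14.71 and 14.58 in WT, a difference of -1.17 (SE 0.18). Its second probe read 12.24, 12.57 and 12.04 in KO and 13.53, 13.40 and 13.54 in WT, a difference of -1.20 (SE 0.23), so the probes of this gene differed by less than their errors. The H2A.L.1 copies are alike in sequence, and the probe sequences are not used here, so each of these probes may read several copies and the values are not independent measurements of separate genes. The WT signals of H2al1e are close to the top of the array scale, at 15.27, and whether differences are compressed there was not tested.

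The neighbouring genes H2ap and H2al3 differed most along with H2al2a. H2ap read 11.02, 11.56 and 11.33 in KO round spermatids and 13.24, 13.46 and 12.99 in WT round spermatids. Its KO minus WT value was -1.92 (SE 0.26, 95% interval -2.49 to -1.36), or 3.80-fold. H2al3 read 10.41, 11.17 and 10.61 in KO and 12.57, 12.51 and 12.35 in WT, a difference of -1.75 (SE 0.24). The KO arrays of H2al3 spread more (SD 0.39) than its WT arrays (SD 0.12), and replicate 2 was the highest of the 3 KO arrays for 6 of the 7 variant genes, all but H2bl1. H2bl1, the only H2B gene of the 7, showed the smallest difference. It read 13.18, 12.92 and 12.83 in KO and 13.97, 13.82 and 14.05 in WT, a difference of -0.97 (SE 0.23) or 1.96-fold. The call of H2bl1 ended without KO replicate 2 (-0.94), KO replicate 3 (-0.90) or WT replicate 3 (-0.92), and the other 6 genes were called in each fit that left out 1 array. The 2 autosomal genes thus stand near the ends of the range, H2al2a at -1.83 and H2bl1 at -0.97, with X-linked genes between -1.17 and -1.92.

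**Figure D2:**
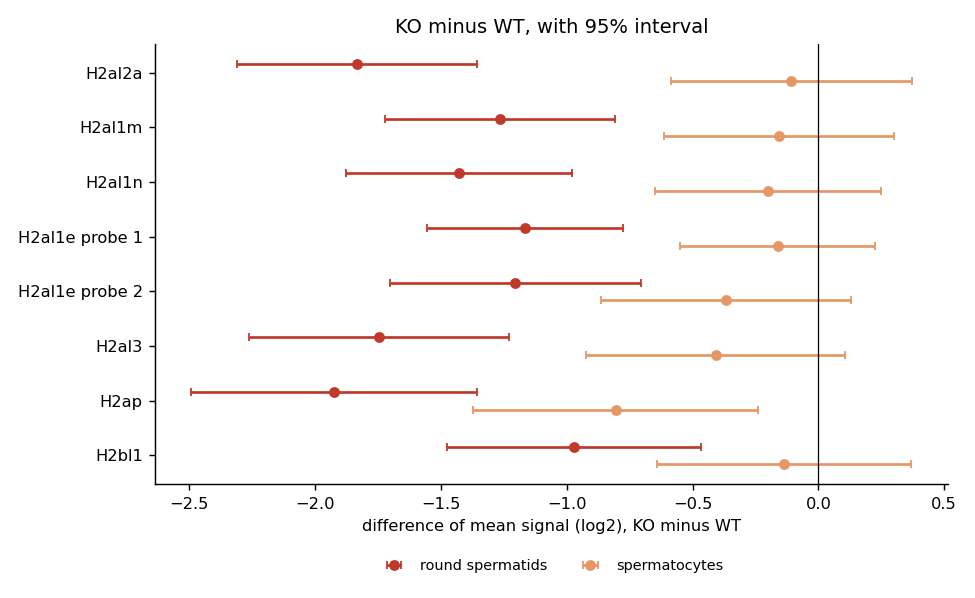
KO minus WT difference of mean signal (log2, x axis) of each probe in round spermatids and in spermatocytes, with 95% intervals from the limma fit (n = 3 arrays per group). In round spermatids every interval lies below 0; in spermatocytes only that of H2ap does, from -1.37 to -0.24, and no gene passed there after adjustment.

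The same comparison in spermatocytes uses other arrays and was tested, though whether its values were in view when the genes were chosen is not known. None of the 7 genes passed in the limma fit, where 0.834% of features were called in either direction, and 1 of the 7, H2ap, had an unadjusted p under 0.05. H2ap read 9.95, 10.07 and 9.64 in KO spermatocytes and 10.34, 10.43 and 11.31 in WT spermatocytes. These arrays do not overlap, as in 5.3% of features with KO lower, and the difference was -0.81 (SE 0.26, unadjusted p = 0.00915, adjusted p = 0.350). H2al2a read 8.96, 9.05 and 9.07 in KO and 8.87, 8.81 and 9.72 in WT spermatocytes, which overlap. Its difference was -0.11, with a 95% interval of -0.59 to 0.37 and an adjusted p of 0.986. Among the H2A.L.1 genes, H2al1m read 11.78, 11.84 and 11.48 in KO and 11.54, 11.73 and 12.29 in WT spermatocytes. H2al1n read 11.20, 11.31 and 10.91 in KO and 11.16, 11.11 and 11.75 in WT, and H2al1e 12.75, 12.71 and 12.59 in KO and 12.72, 12.63 and 13.19 in WT. For all 3 the genotypes overlap, and WT replicate 3 is the highest of the 6 arrays. H2al3 read 9.49, 9.93 and 9.15 in KO and 9.89, 9.77 and 10.13 in WT, and H2bl1 12.14, 11.47 and 11.91 in KO and 11.66, 11.82 and 12.44 in WT. Both overlap between the genotypes. The differences of H2al1m (-0.16), H2al1n (-0.20), H2al1e (-0.16), H2al3 (-0.41) and H2bl1 (-0.14) did not pass either, with adjusted p of 0.843 to 0.979. Their intervals reach down to -0.92 for H2al3, so changes of nearly 2-fold there are within the error.

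WT spermatocyte replicate 3 was the highest array of its group for all 7 genes. The mean signal of the 7 genes was 11.55 on it, against 10.88 and 10.90 on WT replicates 1 and 2, and 10.68 to 10.91 on the KO spermatocyte arrays. The 9 measured round spermatid markers, such as the acrosome gene Acrv1 and the sperm channel gene Catsper1, averaged 12.31 on that array, against 10.94 and 11.20 on the other WT arrays and 11.30 to 11.41 on the KO arrays. The part of spermatid RNA in these values was not tested. Without that array the spermatocyte differences were -0.50 for H2ap, -0.31 for H2al3 and 0.00 to 0.19 for the other 5 genes, none of which passed. Without it the WT rises described below were 2.01 (H2al1e) to 3.21 (H2al2a), and all 7 passed.

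In round spermatids none of these markers passed. Their mean was 12.76 to 13.01 on the KO arrays and 12.86 to 13.05 on the WT arrays, ranges that overlap. The smallest adjusted p in the limma fit was 0.278 (Tssk6, -0.51). That mean averages over both directions. Of the 9 markers 4 read lower in KO, Tssk6, Akap4 (-0.35), Odf1 (-0.31) and Catsper1 (-0.22). The rest read higher, by at most 0.30 (Catsper3). The mean of the 7 variant genes was 11.83 to 12.16 on the KO arrays and 13.40 to 13.50 on the WT arrays. Markers of other testis cells were also present. The 6 measured macrophage markers averaged 7.11 to 8.41 in KO and 6.67 to 7.38 in WT round spermatids. The 4 Leydig cell markers averaged 6.15 to 8.13 in KO and 5.96 to 7.62 in WT, and the 5 Sertoli cell markers 6.92 to 7.87 in KO and 7.59 to 8.24 in WT. Of these genes 2 Sertoli cell markers fell in KO, Cst12 (-1.22) and Cst9 (-1.38), while the Sertoli cell genes Wt1, Amh, Gata4, Clu and Fshr were not measured. The 2 measured erythroid markers averaged 7.55 to 8.81 in KO and 8.92 to 9.92 in WT round spermatids, which do not overlap. Their differences were -1.14 for Hba-a1 and -1.05 for Hbb-bs, with limma adjusted p of 0.0646 and 0.0595. The 3 endothelial and peritubular markers averaged 7.44 to 7.96 in KO and 7.67 to 8.28 in WT, and 1 of them fell, Vwf (-1.25, adjusted p = 0.00862). The part of these cells in the values of the variant genes was not tested.

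**Figure D3:**
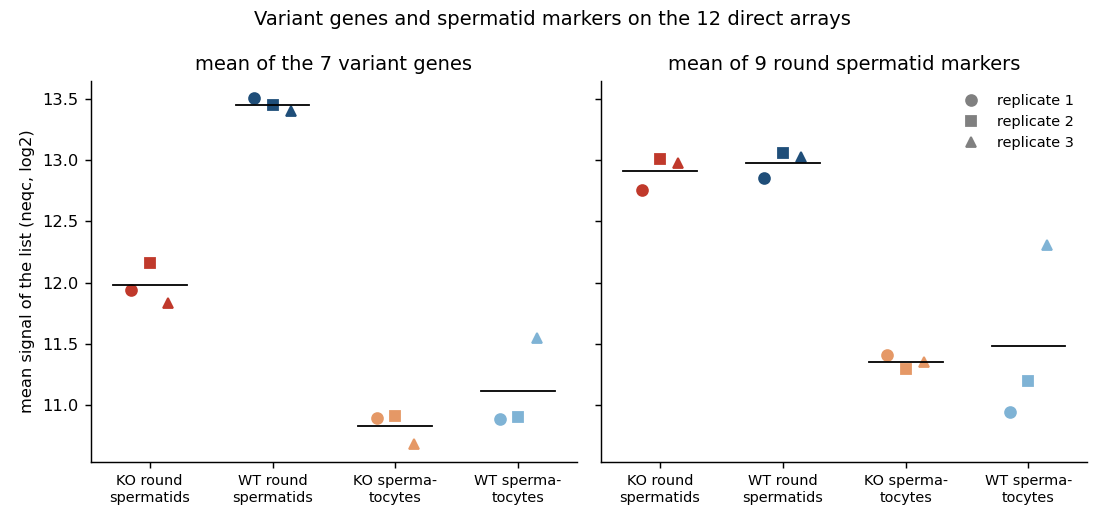
Mean signal (neqc, log2) of the 7 variant genes (left) and of 9 round spermatid markers (right) on each direct array, with the mean of 3 arrays as a bar. The round spermatid arrays of KO and WT are apart for the variant genes (11.83 to 12.16 in KO, 13.40 to 13.50 in WT) and overlap for the markers, and WT spermatocyte replicate 3 is high in both panels.

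The comparison of round spermatids with spermatocytes asks how these genes change as germ cells leave meiosis. All 7 rose in both genotypes, by 1.78-fold to 2.67-fold in KO and by 3.58-fold to 7.56-fold in WT. The stage comparisons share the round spermatid arrays with the comparison taken as known beforehand. In KO 7 of 7 passed as higher in round spermatids, where 26.4% of features did, with adjusted p of 8.39e-04 to 0.00232 (limma). In WT 7 of 7 passed, where 28.4% of features did, with adjusted p of 2.81e-06 to 2.77e-05. The arrays of the stages did not overlap for any of the 7, as for 30.3% of features with round spermatids higher in KO and 30.9% in WT. H2al2a rose by 1.19 (SE 0.22, 2.29-fold) in KO and by 2.92 (SE 0.22, 7.56-fold) in WT. H2ap rose by 1.42 (SE 0.26) in KO and by 2.54 (SE 0.26) in WT, and its neighbour H2al3 by 1.21 (SE 0.24) in KO and 2.54 (SE 0.24) in WT. The H2A.L.1 genes rose by 0.83 (H2al1e) to 1.14 (H2al1n) in KO and by 1.84 (H2al1e) to 2.37 (H2al1n) in WT. The low ends depend on the probe, as the second H2al1e probe rose by 1.27 (SE 0.23) in KO and by 2.11 (SE 0.23) in WT. H2bl1 rose by 1.14 (SE 0.23) in KO and by 1.97 (SE 0.23) in WT. The KO minus WT difference of these rises was -0.83 (SE 0.33) for H2bl1 to -1.73 (SE 0.31) for H2al2a. It contains the round spermatid difference taken as known beforehand and is given with no test. Markers of other testis cells also differed between the stages. Round spermatids minus spermatocytes, the median of the Leydig cell markers was -3.71 in WT and -2.74 in KO. That of the erythroid markers was 3.51 in WT and 2.72 in KO, and that of the macrophage markers 1.56 and 2.43. For the Sertoli cell markers the median was 0.92 in WT and 1.31 in KO. The part of these cells in the rises of the variant genes was not tested.

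**Figure D4:**
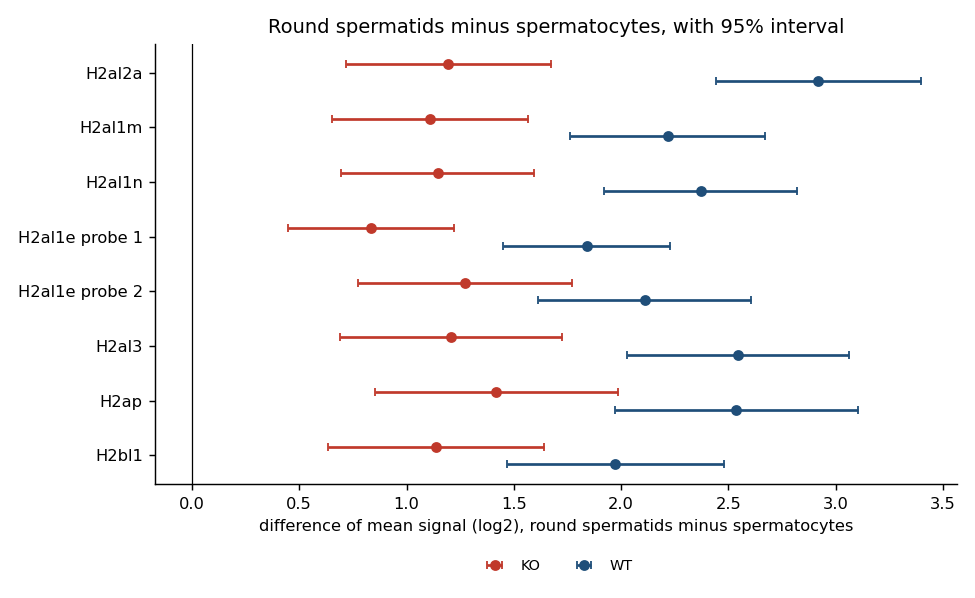
Round spermatid minus spermatocyte difference of mean signal (log2, x axis) of each probe in KO and in WT, with 95% intervals from the limma fit (n = 3 arrays per group). All intervals lie above 0, and every KO rise (0.83 to 1.42) is smaller than the WT rise of the same probe (1.84 to 2.92).

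The order of the groups was the same for each gene by its mean. WT round spermatids read highest, then KO round spermatids, then WT and KO spermatocytes, and the spermatocyte groups did not differ beyond their spread apart from the non-overlapping arrays of H2ap. KO round spermatids stood above all spermatocyte arrays of both genotypes for 6 genes. For H2ap the lowest KO round spermatid array (11.02) was below the highest WT spermatocyte array (11.31). The genes also varied together. Over the 12 direct arrays, pairwise Pearson correlations of the 7 signals were 0.92 to 1.00 (21 pairs, median 0.98), a description that rests mostly on the 4 group means the arrays share.

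By the same measure the 3 named genes most like H2al2a were H2al1e (r = 0.994), Ube2g2, a ubiquitin-conjugating enzyme (0.992), and H2al1n (0.992). The H2A.L.1 genes were most like each other (0.992 to 0.998), H2al2a, Ube2g2 (0.993 and 0.994) and, for H2al1m, Prm3 (0.992). H2al3 was most like the DNA repair gene Rad52 (0.993), Sigirr, of the interleukin-1 receptor family (0.988), and the thymosin gene Tmsb15a (0.985). For H2ap they were Mgmt, a DNA alkyl repair gene (0.995), the mitochondrial chaperone gene Clpb (0.992) and Tctex1d1, a dynein light chain gene (0.991). H2bl1 was most like the transition protein gene Tnp1 (0.988), Prm3 (0.986) and Spatc1 (0.986). These correlations are over 12 arrays that share stage and genotype groups.

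Other genes of the same chromatin transition were set beside the variants in round spermatids, where 6.89% of all features were called higher and 7.99% lower. Of 4 measured genes of transition proteins and protamines 2 fell, with a median difference of -0.65, against -1.43 for the 7 variants and 0.12 for all features. Prm3 read 11.55, 11.56 and 11.12 in KO and 12.80, 12.72 and 12.84 in WT, a difference of -1.37 (SE 0.25, limma adjusted p = 0.00313). Tnp2 differed by -0.82 (SE 0.19, adjusted p = 0.0151). Tnp1 (-0.48, adjusted p = 0.0790) and Prm1 (-0.15, adjusted p = 0.523) did not pass. Both read near the top of the array scale, at 15.27, with WT round spermatid means of 14.65 (Tnp1) and 15.07 (Prm1). Whether their differences, and with them the median of this list, are compressed there was not tested. None of the 4 measured other testis variants passed: the linker histone genes H1f7 (-0.70) and Hils1 (-0.36), the testis H2A gene H2ac1 (-0.07) and the X-linked H2B-related gene H2bfm (0.00). H2ac1 was detected on no round spermatid array of either genotype, so its value cannot show whether it changed there. None of 10 replication-independent histone genes passed (median 0.28), and of 35 core and linker histone genes 4 fell (H3c1, H4c3, H3c7 and H3c6, by 0.66 to 0.97) and none rose (median -0.09). Of 27 genes of spermatid chromatin remodelling 2 rose, the heterochromatin protein gene Cbx3 (1.61, adjusted p = 1.08e-04) and Dot1l (0.68, adjusted p = 0.0382), and 2 fell, Camk4 (-1.20, adjusted p = 0.0286) and Hmgb4 (-0.98, adjusted p = 0.0407). In spermatocytes 1 of these genes passed, Cbx3, which rose by 1.17 (adjusted p = 0.0103).

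**Figure D5:**
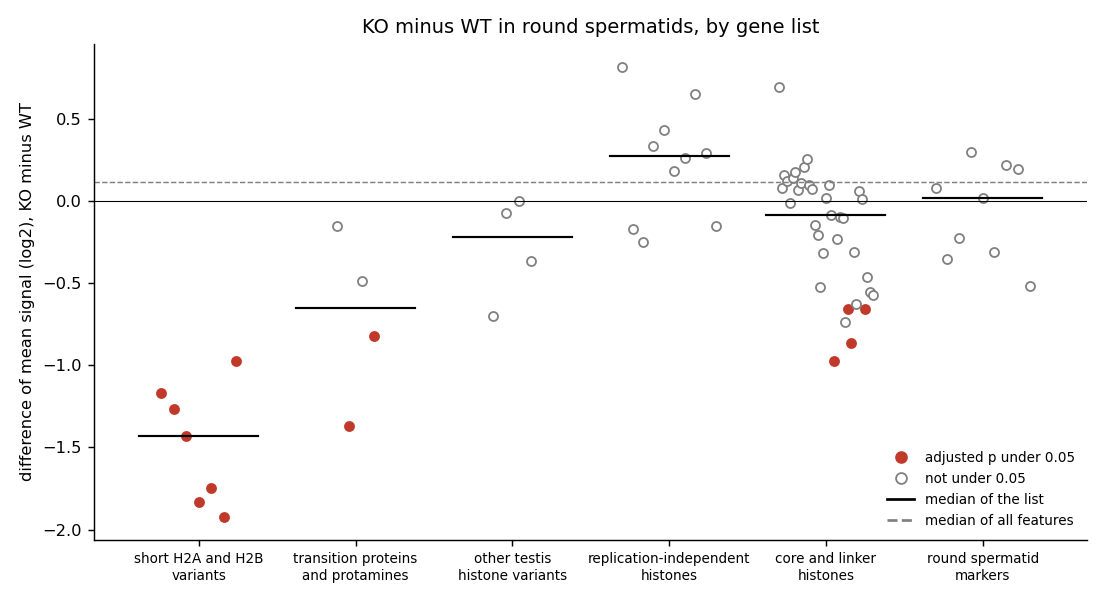
KO minus WT difference of mean signal in round spermatids (log2, y axis) for the genes of 6 lists; points are genes, filled where the adjusted p was under 0.05, black bars are list medians, and the dashed line is the median of all features (0.12). The 7 variant genes lie between -1.92 and -0.97, and the round spermatid markers between -0.51 and 0.30.

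A further copy of the H2A.L.2 family on the Y chromosome, H2al2c, was detected on all WT and on none of the KO round spermatid arrays. It read 4.59, 4.97 and 4.63 in KO and 7.16, 6.15 and 6.14 in WT round spermatids, so it was at least 1.96-fold lower in KO. It passed the detection filter only through its 3 WT round spermatid arrays, so no test is given. That bound sets the WT mean against the lowest detected signal of each KO array. It was not detected on any spermatocyte array. H2ab2, of the H2A.B variants, had a probe that did not pass the detection filter, and the other 14 listed genes of these families were matched to no probe.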

How the data were processed

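Per the file headers, the deposited raw table gives each probe an intensity and a detection p-value on each array. The scanner software and any background subtraction are not given in the sources used here. The processed intensity values that the authors deposited have the same distribution on each array, on a linear scale. The neqc function of limma 3.58.1 (R 4.3.3, offset 16) turned the 24 arrays into log2 signals, estimating background from the detection p-values and then applying quantile normalization. A probe entered if its detection p was below 0.01 on 3 or more of the 12 direct arrays (17401 probes), with the probe of highest mean per gene, which left 12705 features (10076 named genes and 2629 unnamed probes). Genes were matched by Entrez identifier to RefSeq symbols.

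The 4 groups were fitted to the 12 direct arrays with limma's lmFit and eBayes (8 residual degrees of freedom), and every adjusted p is Benjamini-Hochberg over all features. The code was tested on simulated data. The members and lists were chosen with earlier results of these data known. Named are all members, up to 4 list genes per comparison by smallest p, and the 3 genes most correlated with each member; markers, the array checks, further genes of lists with few calls and H2al2c are additions to that rule. By the labels, same numbers pair the stages of a genotype (same fractionation) but not KO with WT. Deviations from group means, taken between stages over all features, correlated within a number at 0.41, 0.39 and 0.04 in KO and at 0.25, -0.20 and 0.20 in WT. Fractionations pool mice, and p-values measure the spread between them. The number of arrays limits the precision.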

Additional observations from a re-analysis of the deposited data

How the results depend on the processing

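For the 7 genes, 16 alternatives per comparison gave 112 values each. All 112 stayed above 0 and called in each stage comparison (0.76 to 1.91 in KO, 1.73 to 3.40 in WT), and all 112 stayed below 0 in round spermatids (-2.36 to -0.90). There, all 7 genes were called under every alternative apart from H2bl1 in the 3 fits named above, where 6 were. With cyclic loess scaling the median of all features moved from 0.12 to -0.02, and the variants read -2.36 (H2ap) to -1.28 (H2bl1). In spermatocytes 0 of 7 were called, except with the mixed arrays included, where 4 were (H2ap, H2al3, H2al1n and H2al1e). Leaving out 1 array, the spermatocyte differences ran from -0.27 to 0.19 for H2al2a, -0.31 to 0.061 for H2al1m, -0.32 to 0.0035 for H2al1n, -0.27 to 0.0078 for H2al1e and -0.29 to 0.10 for H2bl1. The cause was not tested.

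Counts over all features moved more. In round spermatids 1890 were called (53.7% lower), 4912 with the mixed arrays (38.9% lower), and 948 to 2115 without 1 array. With cyclic loess 76.3% of 1671 calls were lower. In spermatocytes 106 were called (77.4% lower), 51 with the authors' processed values (64.7% lower) or no background correction, 35 with the 2 groups alone, 3528 with the mixed arrays, and 60 to 105 without 1 array. With the replicate number or fractionation as a block, 1655 were called in round spermatids and 108 in spermatocytes with a fixed block, 7723 in the WT and 6453 in the KO stage comparison, and no call of the 7 genes changed. Bright signals near the top of the scale and 3 arrays per group limit what these comparisons resolve.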
